A study of Mus musculus with 2 samples.

Results

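Cells with transcripts of Treml4, Ace and related monocyte genes were examined in single-cell RNA sequencing (scRNA-seq) of the dorsal mouse meninges 1 week after a mild closed-skull traumatic brain injury (TBI) or a Sham procedure. Cells were chosen by their measured transcripts. A cell was included, and is called a rule cell here, if at least 2 of the 5 genes Treml4, Ace, Adgre4, Cd300e and Gngt2 had at least 1 unique molecular identifier (UMI, 1 counted transcript). It also had to hold under 0.5% of its UMIs in C1qa, C1qb and C1qc together, and no UMI of Cd79a, Cd3e, Cd209a, Cdh5 or Siglech. Of 5816 cells that passed the quality filters, 75 met these conditions, 32 of 2043 in the Sham library and 43 of 3773 in the TBI library.

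Each group was 1 library, made from the pooled meninges of 5 male wild-type mice that were 10 weeks old (another field of the labels gives a slightly wider range), given as C57BL/6 in the labels and as C57BL/6J in the study's methods. Live single cells were sorted without a marker of cell type, and mice were perfused before dissection, so a cell's place in a vessel or in tissue was not recorded. The 2 libraries held 2699 and 4349 cell barcodes, more than the study's methods state for either, and a median of 2764 (Sham) and 2663 (TBI) UMIs per filtered cell. Among all barcodes 20 sequences occurred in both libraries, and none of the 75 rule cells shared one. Since a group was a single library, groups are compared without a test. The 95% intervals below cover counting error and not the variation between mice.

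Non-classical monocytes are blood-derived myeloid cells that crawl along the inner wall of small vessels and survey the endothelium. They arise largely from classical, Ly6C-high monocytes, and depend on the nuclear receptor NR4A1 and on CSF1R signalling. In contrast to macrophages and dendritic cells of the meninges, they are not known as major carriers of MHC class II.

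Of the genes that chose the cells, Treml4 encodes a myeloid receptor of the TREM family (chr17:48264295-48275360, + strand, mm10), and Ace encodes angiotensin-converting enzyme (chr11:105967945-105989964, + strand). Adgre4 encodes an adhesion G protein-coupled receptor (chr17:55749984-55853662, + strand), Cd300e a myeloid surface receptor (chr11:115051917-115062177, - strand), and Gngt2 a G protein gamma subunit (chr11:95837216-95845734, + strand). Among the 75 cells, 33 had exactly 2 of these genes, 14 had 3, 20 had 4 and 8 had all 5. Just outside the rule stood 414 cells with a single gene that met every other condition. In 229 of them that gene was Ace, in 159 Gngt2, in 17 Treml4, in 8 Adgre4 and in 1 Cd300e. The C1q limit of 0.5% lay well above the rule cells but close to the lowest cell that it kept out. The highest rule cells had 0.186% and 0.166% of UMIs in C1q genes, and the lowest of 33 cells kept out by this limit alone had 0.539%.

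The label of non-classical monocytes was then checked with a clustering of all filtered cells that left out the 5 rule genes, the C1q genes and the 5 excluding genes. It gave 24 clusters, and 45 of the 75 rule cells fell into a single one of 72 cells. The genes that led this cluster were Apoc2, Gm9733, Hp, Treml4, Sirpb1c, Ifitm6, Adgre4, F10, Nfe2 and Emilin2, and all 4 marker genes (Treml4, Ace, Adgre4 and Cd300e) were among its first 50, so it is called the monocyte cluster below. These 4 are rule genes and 45 of the 72 cells were chosen by them, so the name is not independent of the rule. The other 30 rule cells were spread over 9 clusters led by genes of other cell types. The largest of these groups were 9 cells in a cluster led by Cd209a and Xcr1, 4 in a cluster led by the capillary gene Gpihbp1, 4 in a cluster led by Fscn1 and Ccr7, and 4 in a cluster led by Chgb and Tph1. Of the rule cells 60.0% thus lay in this cluster, which also held cells with transcripts of classical monocytes, and values below are given for the 45 cluster monocytes first and for all 75 rule cells beside them.

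**Figure D1:**
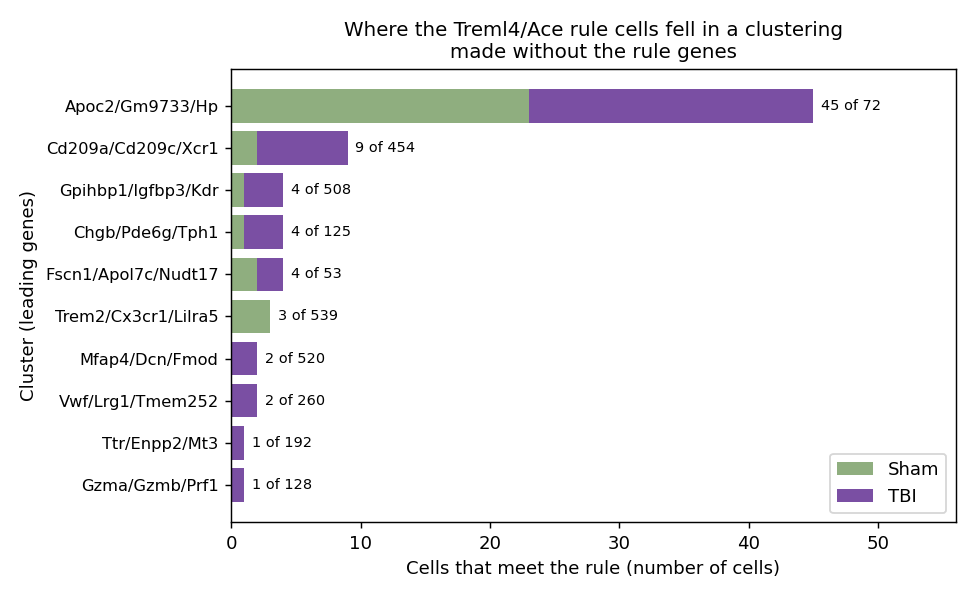
Number of rule cells (x axis) in each cluster that held any (y axis, named by its first 3 leading genes), stacked by library, with the number of rule cells of all cells in the cluster beside each bar. The Apoc2/Gm9733/Hp cluster held 45 of its 72 cells, and no other cluster held more than 9.

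The split differed between the libraries. In the Sham library 23 of 32 rule cells (71.9%) lay in the monocyte cluster, and in the TBI library 22 of 43 (51.2%). The cells outside it met the rule narrowly: 26 of 30 had exactly 2 rule genes, against 7 of 45 inside. Gngt2 was 1 of the pair in most of them, with Ace in 10 cells, with Adgre4 in 7 and with Treml4 in 6. There were exceptions. The cluster led by Trem2 and Cx3cr1 held 3 rule cells, all from Sham, of which 2 had 3 or more rule genes. In the cluster led by Mfap4 and Dcn 1 TBI cell had 3 rule genes, as did 1 Sham cell in the cluster led by Chgb and Tph1. None of the 75 cells was among those marked as likely doublets, a mark set on 2.53% of all filtered cells. The rule itself left out cells with genes of several other lineages. The absence of marked cells therefore does not show that the rule cells were unmixed.

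Markers of other cell types differed by list between the cluster monocytes and the rest of the rule cells. Among the cluster monocytes 4 Sham and 6 TBI cells had 2 or more markers of another cell type, of 7 and 19 such rule cells. Every gene of the natural killer (7 genes), T cell (5) and plasmacytoid dendritic (3) lists was at 0 UMIs in the 45 cluster monocytes, where a count of 0 allows up to 33.4 counts per 1000000 UMIs (CPM) in Sham and 39.2 CPM in TBI. In the 30 cells outside the cluster the plasmacytoid list was at 0 too, and genes of the natural killer and T cell lists were found in 1 cell each. The B cell list, led by Ighm, was higher inside the cluster (245 and 418 CPM) than outside (157 and 135 CPM). So was the macrophage list without C1q genes, led by Apoe, at 3458 and 5648 CPM inside and 2926 and 2241 CPM outside. Of 7 endothelial genes 6 were at 0 (Flt1 was the exception, with 14 UMIs), and of 5 platelet genes Ppbp, Gp9, Itga2b and Gp1bb were at 0. Fibroblast genes were detected at 100.1 CPM summed over the list in Sham and 275 CPM in TBI, with Igfbp5 the most abundant at 10 UMIs. In the 30 cells outside the cluster the same fibroblast list summed to 26.1 CPM in Sham and 3052 CPM in TBI. The endothelial list there summed to 274 and 1777 CPM. Hemoglobin genes moved the other way, at 1323 CPM in Sham and 157 CPM in TBI among the cluster monocytes, with 18 cells holding 2 or more of the 4 genes in Sham and 0 in TBI. What part these transcripts had in the differences between libraries was not tested.

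In the cluster monocytes UMIs of the rule genes were found in a larger share of cells than in B cells, which should lack them. Treml4 had at least 1 UMI in 12 of 23 Sham cells (52.2%) and 16 of 22 TBI cells (72.7%). In B cells, at a similar median depth (3172.5 and 2709.5 UMIs, against 3451 and 3279 in the cluster monocytes), it was found in 0 of 438 Sham cells, which allows a share of cells with a UMI of up to 0.685% and sets no limit on expression, and in 0.244% of TBI cells. After each cell was thinned to 1000 UMIs the Treml4 shares of the cluster monocytes were 31.8% and 22.7%, the opposite order, so no difference between the libraries is read from them. Ace was found in 20 of 23 and 20 of 22 cells, against 0 and 0.488% of B cells. Gngt2 was less selective, since it was detected in 95.7% and 100% of cluster monocytes but also in 32.4% and 27.6% of B cells. These values describe the genes that chose the cells and support nothing by themselves.

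Of 22 myeloid transcription factors 13 were measured, and 6 were at least 2-fold higher in the cluster monocytes than in C1q macrophages in both libraries (17.9% of all genes were so) and 1, Maf, was lower (9.72%). Cells with a UMI each of Ly6c2 and Ccr2, meant as classical monocytes, are called the Ly6c2/Ccr2 set below, since they were mixed. Of its 47 cells 13 lay in the monocyte cluster, and it also held natural killer and dendritic transcripts. The log2 ratio of cluster monocytes over this set was -7.84 in Sham and -6.58 in TBI for Gzma, and -4.98 and -4.70 for Clec9a. Against this set 5 factors were higher (12.4% of all genes) and 2, Irf8 and Id2, were lower (5.13%). Nr4a1, the nuclear receptor on which these cells depend (chr15:101254269-101274795, + strand), summed to 723 CPM in Sham and 797 CPM in TBI. It was at 6.33 and 22.02 CPM in macrophages rich in C1q (212 and 574 cells), and at 42.9 and 28.6 CPM in the Ly6c2/Ccr2 set (18 and 29 cells). Single cells ranged widely: Nr4a1 lay between 0 and 17.6 UMIs per 10000 in Sham (median 7.36) and between 0 and 40.0 in TBI (median 8.40), so the libraries overlapped almost entirely. Pou2f2, a POU-domain factor, reached 1012 and 824 CPM, against 149 and 169 CPM in the macrophages. Cebpb, a C/EBP factor of monocyte survival, was at 189 and 235 CPM, against 13.6 and 12.4 CPM. Klf4 was at 278 and 301 CPM, against 14.5 and 8.94 CPM. Maf, a macrophage factor, was the reverse, at 22.2 and 52.3 CPM against 557 and 569 CPM.

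**Figure D2:**
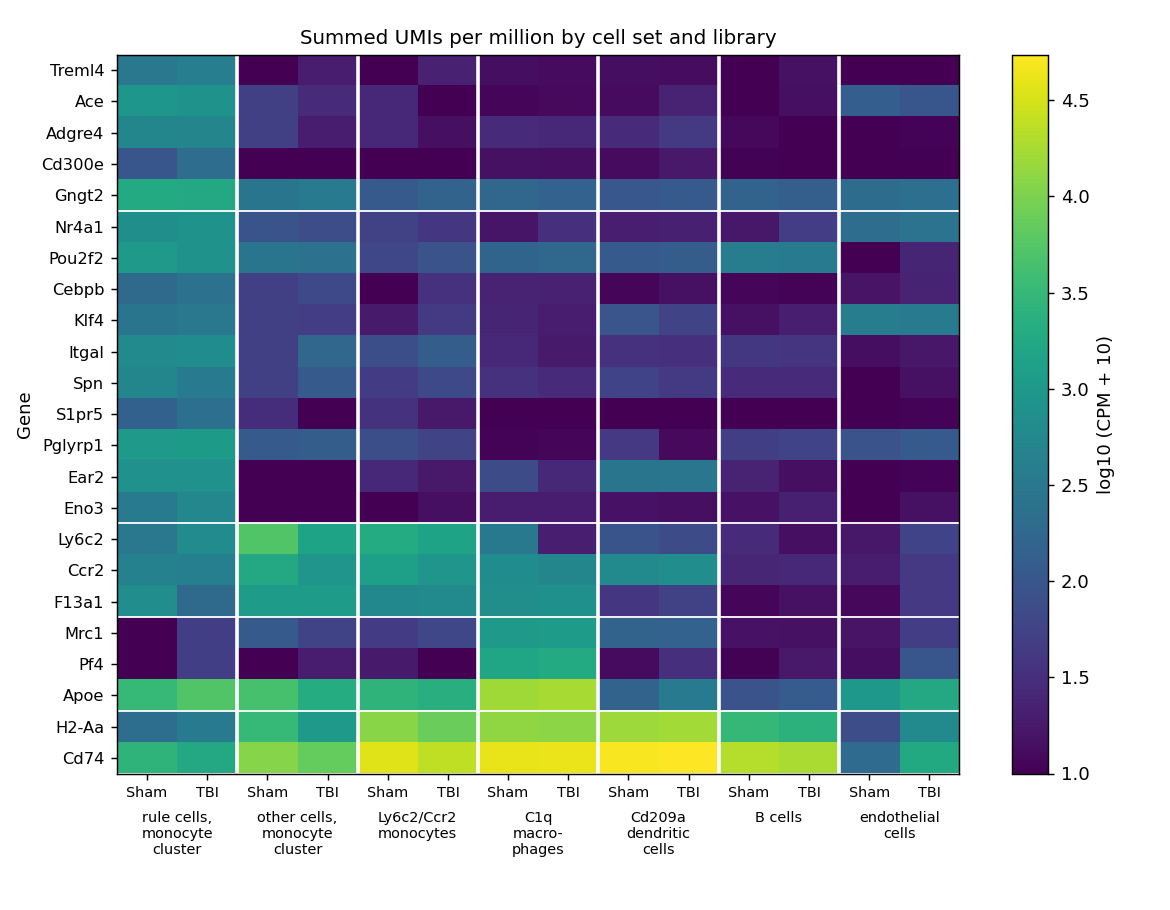
Summed level as log10 (CPM + 10) for 23 genes (rows) in 7 sets of cells, each split into the Sham and TBI library (columns). The rule genes and Nr4a1, Pou2f2, Cebpb, Itgal, Spn, S1pr5, Pglyrp1, Ear2 and Eno3 were brightest in the rule cells of the monocyte cluster. Cd74 and H2-Aa were darker there than in the mixed Ly6c2/Ccr2 set (made for classical monocytes), macrophages and dendritic cells.

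Across a list of 24 genes of non-classical monocytes, 20 were measured (20 or more UMIs in the cluster monocytes, or an equal level in the set compared). At least 2-fold higher in both libraries were 16 of them against the C1q macrophages, where 17.9% of 1554 genes were so. Against dendritic cells with Cd209a there were 19, with a background of 20.2% of 1447 genes. Against the Ly6c2/Ccr2 set there were 17, with a background of 12.4% of 1481 genes. These counts are a description, since the rule and the clustering chose the cells on the same transcripts. Pglyrp1, an antibacterial peptidoglycan-binding protein, was at 1045 and 1085 CPM in the cluster monocytes and at 68.7 and 49.0 CPM in the Ly6c2/Ccr2 set. Ear2, a ribonuclease of the eosinophil-associated family, was at 778 and 758 CPM, and at 17.2 and 8.17 CPM in the Ly6c2/Ccr2 set. Its gap to dendritic cells with Cd209a was smaller, with log2 ratios of 1.51 in Sham and 1.44 in TBI. Ear2 was also among the leading genes of the cluster led by Cd209a and Xcr1. Cx3cr1, the fractalkine receptor, was higher in the cluster monocytes than in the Ly6c2/Ccr2 set (345 and 327 against 163 and 163 CPM). In macrophages it was higher still (646 and 533 CPM).

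Adhesion and trafficking genes were among those that were higher. Of 13 measured, 8 were at least 2-fold higher than in C1q macrophages in both libraries, where 17.9% of all 1554 genes were so (Itgal, Itgb2, Itga4, Itgb7, Spn, Cd44, S1pr5 and Cxcr4) and 0 were lower. Itgal, the alpha chain of the integrin LFA-1 that binds ICAM-1 on endothelium, was at 589 and 641 CPM. It was at 16.3 and 8.60 CPM in macrophages and 68.7 and 114 CPM in the Ly6c2/Ccr2 set. S1pr5, a sphingosine-1-phosphate receptor that supports exit of these cells from bone marrow, was at 133 and 222 CPM in the cluster monocytes and at 0 UMIs in the macrophages of both libraries. Spn, which encodes CD43, was at 500.4 CPM in Sham and 339.9 CPM in TBI and was detected in 16 of 23 and 10 of 22 cells.

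Antigen presentation through MHC class II was low. All 6 measured class II genes were at least 2-fold lower in the cluster monocytes than in C1q macrophages in both libraries, where 9.72% of genes were so. All 8 measured were lower than in dendritic cells with Cd209a (background 4.49%), and all 6 lower than in the mixed Ly6c2/Ccr2 set (background 5.13%). Cd74, the invariant chain, was at 2658 CPM in Sham and 1817 CPM in TBI, against 41589 and 42237 CPM in macrophages. In the Ly6c2/Ccr2 set Cd74 was at 36404 and 23775 CPM, which is not read as the level of classical monocytes because the set was mixed. H2-Aa, a class II alpha chain, was at 211 and 353 CPM, against 13011 and 12211 CPM in macrophages. Over all 75 rule cells the gap to the macrophages was smaller, with a log2 ratio of Cd74 of -1.88 in Sham and -1.40 in TBI against -3.96 and -4.53 for the cluster monocytes. Of the Cd74 UMIs, 4388 lay in 19 of the 30 cells outside the cluster and 378 in 35 of the 45 cells inside it.

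Macrophage genes were almost uniformly low, the C1q genes among them by the rule itself. Of 14 measured, 13 were at least 2-fold lower in both libraries than in C1q macrophages, where 9.72% of all 1554 genes were so, among them the mannose receptor gene Mrc1 (0 and 39.2 against 1033 and 1153 CPM). Apoe, an apolipoprotein gene, was at 3214 and 5229 CPM, against 16064 and 17557 CPM. Fc receptor genes differed by member. Fcer1g, the shared signalling chain, was at 4159 and 5190 CPM, close to the 3567 and 3650 CPM of macrophages. Fcgr3 was lower, at 234 and 275 CPM against 799.9 and 775 CPM, as was the inhibitory receptor gene Fcgr2b, at 211 and 91.5 CPM against 517 and 516 CPM. Fcgr4, a receptor typical of non-classical monocytes, was at 200.2 and 275 CPM against 110 and 94.9 CPM.

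Genes of coagulation and fibrinolysis were sparse. Of 15 listed 6 were measured against C1q macrophages, of which Plaur, Serpinb2 and Anxa2 were at least 2-fold higher in both libraries (17.9% of all genes were so) and Gas6 at least 2-fold lower (9.72%). Gas6, a ligand of TAM receptors, had 2 UMIs in Sham and 0 in TBI, against 357 and 459 CPM in the macrophages. Plaur, the urokinase receptor gene, was at 178 and 170.0 CPM in the cluster monocytes and at 9.95 and 9.29 CPM in C1q macrophages. Serpinb2, an inhibitor of plasminogen activators, was at 100.1 and 144 CPM and at 0 UMIs in the macrophages of both libraries. F10, which encodes coagulation factor X and was among the leading genes of the cluster, had 6 UMIs in 4 Sham cells and 6 UMIs in 6 TBI cells of the 45, and was higher in the other 27 cells of the cluster (146 and 125 CPM). F13a1, which encodes the factor XIII A chain and marks classical monocytes, came from 3 cells in each library, with 60 and 14 UMIs.

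The monocyte cluster itself was not uniform. Its 27 cells that did not meet the rule resembled classical monocytes in their transcripts: 19 had Ly6c2, which encodes the Ly6C antigen, and 22 had Ccr2, the receptor that guides monocytes out of marrow. In these 27 cells Fn1 was at 1440 CPM, Nr4a1 at 72.3 CPM and Ear2 at 0 UMIs. Among the 45 cluster monocytes, 10 also had Ly6c2, 5 in each library. This division was made after the values were seen, and it is descriptive. The 10 cells had higher Ccr2 (781 against 203 CPM in the 35 cells without Ly6c2), F13a1 (1164 against 9.64 CPM) and Plac8 (2742 against 955 CPM). They had lower Pglyrp1 (383 against 1476 CPM), Ear2 (223 against 1099 CPM), Spn (112 against 617 CPM) and Treml4 (159 against 453 CPM). Nr4a1 differed less, at 558 CPM in the 10 cells and 878 CPM in the 35, and was detected in 9 of 10 and 30 of 35 cells. The 10 cells were deeper, with a median of 5354.5 UMIs against 2847, so these shares of cells are not compared. Ly6c2 has a near-identical neighbour, Ly6c1, so its counts are uncertain to that extent.

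Rule cells made up a smaller share of the TBI library. They were 1.57% of filtered cells in Sham (exact binomial 95% interval 1.07 to 2.20%) and 1.14% in TBI (0.826 to 1.53%). Cluster monocytes alone were 1.13% in Sham (0.715 to 1.68%) and 0.583% in TBI (0.366 to 0.881%). The intervals of the 2 libraries overlapped for all rule cells and for cluster monocytes. Each is the interval of 1 share, and none was computed for the difference. The other 27 cells of the monocyte cluster went the other way, with 7 of 2043 cells in Sham and 20 of 3773 in TBI. The whole cluster held 30 Sham and 42 TBI cells. Cells with 3 or more of the 5 rule genes made up 1.08% and 0.530%. Of cells with at least 1 UMI of Ptprc, which encodes the pan-leukocyte antigen CD45, rule cells were 2.70% and 2.14%. With cells that had both Col1a1 and Col1a2 left out of the total, as fibroblasts, the shares were 1.60% and 1.35%, a difference (TBI minus Sham) of -0.25 percentage points in place of -0.43. The share of rule cells was lower in TBI under each of these definitions. As a share of a sorted suspension it also moves with the yield of every other cell type. Fewer monocytes and more of other cells cannot be told apart.

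**Figure D3:**
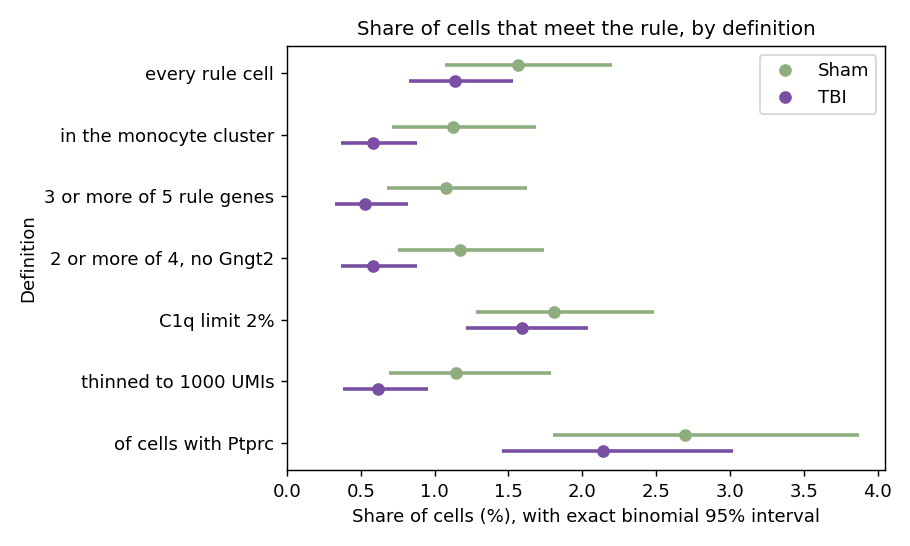
Share of cells that met the rule (x axis, percent) in the Sham and TBI library under 7 definitions (y axis), with points for the share and lines for the exact binomial 95% interval. The Sham share was above the TBI share in each, with 1.57% against 1.14% in all rule cells and 1.13% against 0.583% in the monocyte cluster. The intervals overlapped, but each is the interval of 1 share and not of the difference.

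For each gene the CPM summed over the TBI cells was then divided by that of the Sham cells, after 0.5 was added to each sum of UMIs, and this ratio is given on the log2 scale. In all 75 rule cells 2642 genes had at least 20 UMIs, of which 153 (5.79%) were at least 2-fold higher in TBI and 136 (5.15%) at least 2-fold lower. The genes at the extremes came mostly from cells outside the monocyte cluster. Penk, an opioid peptide precursor, had 66 UMIs, 65 of them in 1 TBI cell of the Gpihbp1 cluster. All 49 UMIs of the chemokine gene Xcl1 lay in 1 TBI cell of the cluster led by Gzma and Prf1. All 50 UMIs of Chgb, a granin of secretory cells, lay in 1 Sham cell of the cluster led by Chgb. The extracellular matrix and vessel genes Mgp, Vtn, Bgn, Vwf and Emcn were also among the 8 highest, with between 0 and 9 of their UMIs in the monocyte cluster. Ccl5, the RANTES chemokine, had 739 UMIs in 5 cells and none of them lay in the monocyte cluster.

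Within the 45 cluster monocytes 1310 genes had at least 20 UMIs, of which 52 (3.97%) were at least 2-fold higher in TBI and 43 (3.28%) lower, with a median log2 ratio of 0.08 over all genes. Genes that mark these cells lay on both sides of 0. Nr4a1 had 65 UMIs in 20 Sham cells and 61 UMIs in 19 TBI cells, a log2 ratio of 0.14 (-0.39 to 0.67). Pglyrp1 had 94 and 83 UMIs (0.05, -0.39 to 0.50), Itgal 53 and 49 (0.12, -0.47 to 0.71), and Ear2 70 and 58 (-0.04, -0.57 to 0.49). After thinning Pglyrp1 was at -0.53 and Itgal at 0.71. Spn had 45 and 26 UMIs (-0.55, -1.31 to 0.17). Fabp4, a fatty acid-binding protein gene, had 12 and 21 UMIs (1.02, -0.05 to 2.20), and the rule gene Cd300e 8 and 16 UMIs (1.19, -0.07 to 2.67). Cd300e was found in 7 of 23 Sham and 6 of 22 TBI cells, with 6 of the TBI UMIs in 1 cell, and reached 20 UMIs through its TBI cells. The list of non-classical monocyte genes had a median of 0.12, with 12 of 20 measured genes above 0. The sign of this median depended on the cells and on the measure. It was -0.17 in cluster monocytes with 3 or more rule genes and -0.036 without cells with Ly6c2, and over all 45 cells it was -0.083 as a mean over cells (9 of 20 above 0) and -0.072 after thinning (4 of 9). In all 75 rule cells it was -0.26, with 4 of 21 above 0, and there 21 of the 43 TBI cells and 9 of the 32 Sham cells lay outside the cluster.

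MHC class I genes had the higher values in the TBI library among the cluster monocytes. These genes encode the heavy chains, beta-2-microglobulin and the peptide transporter that load and display peptides to CD8 T cells. Of 12 on the list 8 were measured, 7 were above 0 and 3 were at least 2-fold higher (H2-Q7, H2-T23 and Tap1), with a median log2 ratio of 0.78. Of all 1310 genes 714 were above 0 and 3.97% at least 2-fold higher. These counts describe the genes that passed the minimum of 20 UMIs, and at 50 UMIs the median was 0.42 over 3 genes. H2-D1, a classical heavy chain found in all 45 cells, ranged from 7.02 to 190.0 UMIs per 10000 in Sham (median 32.2) and from 21.2 to 82.6 in TBI (median 42.5). Its summed level was 3436 CPM in Sham and 4589 CPM in TBI, a log2 ratio of 0.42 (0.19 to 0.64). H2-K1 was at 1568 and 2497 CPM (0.67, 0.35 to 1.00), with medians of 17.9 and 25.8 UMIs per 10000. B2m, the light chain, was at 2491 and 3295 CPM (0.40, 0.14 to 0.67). The single cells of the libraries overlapped for each of these 3 genes.

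**Figure D4:**
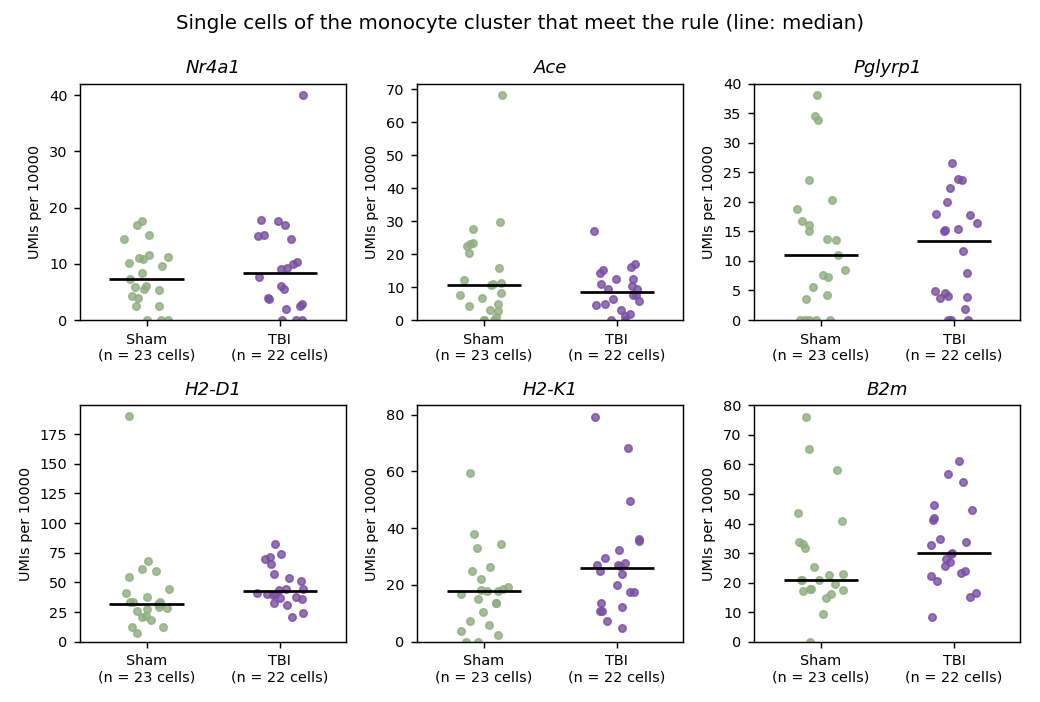
UMIs per 10000 (y axes, linear, from 0) of 6 genes in each cluster monocyte of the Sham (n = 23 cells) and TBI (n = 22 cells) library, with a line at the median. Medians of H2-D1 (32.2 and 42.5), H2-K1 (17.9 and 25.8) and B2m were higher in TBI with overlapping cells, and those of Nr4a1 (7.36 and 8.40) were close. Cells of 1 library are not replicates.

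The low-count class I genes need more caution. H2-Q7 had 3 UMIs in 2 Sham cells and 17 UMIs in 10 TBI cells, so it passed the minimum of 20 UMIs through its TBI cells, as Tap1 did, and it is near-identical to other H2-Q genes. H2-T23, which encodes Qa-1, had 12 UMIs in 10 Sham cells and 33 UMIs in 15 TBI cells (1.66, 0.70 to 2.78). Tap1, a subunit of the peptide transporter, had 6 and 17 UMIs (1.66, 0.33 to 3.37), and Tapbp, which encodes tapasin, had 28 and 14 UMIs (-0.74, -1.81 to 0.21). Without the cell that held most UMIs of each gene, the log2 ratio was 0.38 for H2-D1, 0.58 for H2-K1, 0.54 for B2m and 1.25 for Tap1. With each cell thinned to 1000 UMIs it was 0.12 for H2-D1, 0.85 for H2-K1, 0.32 for B2m and 0.49 for Tap1. As a mean over cells Tap1 was at 0.79, against 1.66 from sums. The class I list took a median of 0.752% of the UMIs of a cluster monocyte in Sham and 1.06% in TBI. In all 75 rule cells the list's median log2 ratio was 0.13, with 8 of 11 genes above 0, and B2m was at -0.10 (-0.29 to 0.09).

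**Figure D5:**
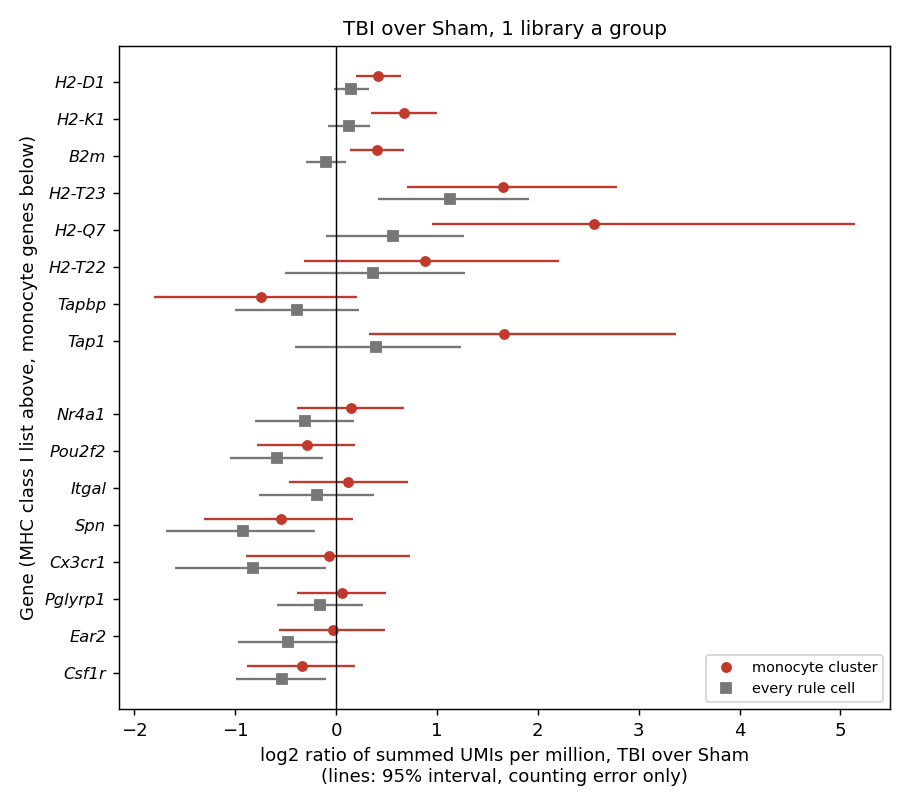
Log2 ratio of TBI over Sham (x axis) of 8 MHC class I genes and 8 monocyte genes (y axis) in the monocyte cluster (circles) and in all rule cells (squares), with lines for the 95% interval from counting error. In the cluster 7 of the 8 class I genes lay above 0, Tapbp being below, and the intervals of all 8 monocyte genes spanned 0.

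Interferon-induced genes gave a less even picture. In the cluster monocytes 15 of the 59 genes listed were measured, 13 were above 0 and 2 were at least 2-fold higher (Ifi203 and Xaf1, against 3.97% of all genes), with a median log2 ratio of 0.42 that was 0.10 without the 10 cells that had Ly6c2. Xaf1, an apoptosis-associated factor, had 6 UMIs in 4 Sham cells and 14 UMIs in 5 TBI cells (1.39, -0.01 to 3.12), and so passed the minimum through its TBI cells. The membrane proteins encoded by Ifitm3 and Ly6e were the best measured, with 442 and 421 UMIs of Ifitm3 (0.16, -0.03 to 0.36) and 250 and 257 UMIs of Ly6e (0.27, 0.02 to 0.53). Strongly induced members came from few cells. In TBI, a single cell held all 12 UMIs of Ifit3 and 14 of 16 UMIs of Isg15, a ubiquitin-like modifier, and the 2 genes had 2 and 1 UMIs in Sham. The share of a cell's UMIs in the list had a median of 1.17% in Sham and 1.34% in TBI, and the highest cell reached 3.72% in TBI and 2.01% in Sham. In all 75 rule cells the direction depended on the measure: the median share of UMIs was 1.05% in Sham and 0.875% in TBI, and the list's median log2 ratio was 0.68 from sums, 0.20 as a mean over cells and -0.19 after thinning. From sums 22 of 30 measured genes were above 0, 6 at least 2-fold higher and 1 lower, where 5.79% of all 2642 genes were higher and 5.15% lower.

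MHC class II genes changed sign with the set of cells. Their median log2 ratio was -0.42 in the cluster monocytes (2 of 5 measured genes above 0) and 0.56 in all rule cells (5 of 6). Cd74 in the cluster had 239 UMIs in 20 Sham cells and 139 UMIs in 15 TBI cells, of which 88 and 85 lay in 1 cell each. Its log2 ratio of -0.55 (-0.86 to -0.24) was 0.057 in the cluster monocytes with 3 or more rule genes and -1.10 without cells with Ly6c2. Without the cell that held most of its UMIs the log2 ratio of Cd74 was -0.096.

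The single genes with the highest ratios in the cluster monocytes were named by rank after the values were seen, and most rested on few cells. The highest was Chil3, a chitinase-like gene of classical monocytes and neutrophils, with 2 UMIs in 1 Sham cell and 57 UMIs in 4 TBI cells, 38 of them in 1 cell. More evenly spread was Skint3, with 3 UMIs in 2 Sham cells and 23 UMIs in 11 TBI cells. Skint3 was also among the leading genes of the cluster led by Cd209a and Xcr1. Ndufs7, a subunit of mitochondrial complex I, was more evenly spread too, with 7 UMIs in 6 and 24 UMIs in 14 cells. Anxa1, the glucocorticoid-regulated annexin, had 4 UMIs in 3 and 22 UMIs in 9 cells, and Il1b, the inflammatory cytokine, had 5 UMIs in 5 and 17 UMIs in 10 cells. These 4 genes were ranked on the same ratio and reached 20 UMIs through their TBI cells, so the values are a description. As a mean over cells the log2 ratio of Anxa1 was 1.10, against 2.56 from sums.

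At the other end, 3 of the 8 lowest genes in the cluster monocytes were the hemoglobin genes Hba-a2, Hbb-bs and Hba-a1. The hemoglobin list also had a negative median in C1q macrophages (-2.88), dendritic cells with Cd209a (-1.32), the Ly6c2/Ccr2 set (-2.83) and B cells (-2.06). Hbb-bs had 56 UMIs in 19 Sham cells and 7 UMIs in 7 TBI cells. C3, the central complement component, had 21 UMIs in 11 and 4 UMIs in 4 cells. Cebpd, a C/EBP factor, had 19 UMIs in 6 and 4 UMIs in 3 cells (-1.88, -4.03 to -0.43), and in all 75 rule cells its log2 ratio was 0.02. Cebpd and C3 reached 20 UMIs through their Sham cells.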

How the data were processed

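The deposited counts were UMI counts per gene and barcode for 32285 genes, in 1 matrix per library (10x Chromium, mm10). The authors made them with Cell Ranger; the submitters' processing notes give version 2.1.1, the file headers version 3.1.0 and the study's methods an older one. Cells with 150 to 5000 genes, at most 20% mitochondrial and at most 5% hemoglobin UMIs were kept. Groups came from the sample titles. Counts were summed over cells of a set within a library and scaled to counts per 1000000 UMIs (CPM). Ratios had 0.5 added to each sum, exact conditional binomial intervals, and needed 20 UMIs over both libraries. A gene was counted past 2-fold on that scale. The ratio and interval code was tested on simulated sums that held counting error only. Differences between cells were not simulated, so the test does not cover genes whose UMIs lay in few cells. Cells were clustered with scanpy 1.11.5 and leidenalg 0.10.2 (2000 variable genes, 20 components, 20 neighbours, resolution 0.8).

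Scrublet's automatic threshold marked too few cells to be used, so the highest doublet scores were marked at 0.8% per 1000 cells, 33 cells in Sham and 114 in TBI. The comparison sets were defined by marker genes. C1q macrophages had at least 0.5% of UMIs in C1q genes and a UMI of Csf1r, and dendritic cells a UMI of Cd209a. The Ly6c2/Ccr2 set, made for classical monocytes, had a UMI each of Ly6c2 and Ccr2, and B cells a UMI each of Cd79a and Cd79b. Each set was without UMIs of selected genes of other lineages. This left natural killer and dendritic transcripts in the Ly6c2/Ccr2 set, of whose 47 cells 13 lay in the monocyte cluster. The rule, the members and the gene lists were chosen with earlier results of these data known. Named genes were those of the lists, the 8 highest and 8 lowest ratios of TBI over Sham, the 15 genes highest and the 10 lowest against C1q macrophages, and, added later, the 8 highest and lowest within the monocyte cluster. The libraries were 1 per group, so alternatives concerned the rule, filters, scaling and denominators. Gene positions are from GENCODE on mm10. Some genes that the naming rule takes in are not reported here.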

Additional observations from a re-analysis of the deposited data

Results flagged for a closer look

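For the 3 gene lists given here, the median log2 ratio of TBI over Sham in the cluster monocytes differed in sign from at least 1 other set of myeloid cells. It had the same sign as in others. The non-classical monocyte list (0.12, against -0.0092 in C1q macrophages) and the classical monocyte list (0.019, against -0.47) differed in sign too. None of these differences was tested, since each group was 1 library. For the MHC class I list the median was 0.78 in the cluster monocytes (8 genes measured), 0.20 in B cells (12 genes) and 0.15 in dendritic cells with Cd209a (12 genes). It was -0.08 in C1q macrophages (12 genes) and -0.18 in the mixed Ly6c2/Ccr2 set (11 genes). The value of 0.78 includes H2-Q7 and Tap1, which reached 20 UMIs through their TBI cells, and over the 3 genes with 50 UMIs it was 0.42. For the interferon-induced list the median was 0.42 in the cluster monocytes (15 genes measured) and 0.41 in the mixed Ly6c2/Ccr2 set (33 of 47 above 0). It was 0.19 in B cells (34 of 44), 0.085 in C1q macrophages (35 of 57) and -0.13 in dendritic cells with Cd209a (20 of 52). For the MHC class II list the median was -0.42 in the cluster monocytes (5 genes measured) and -0.35 in the mixed Ly6c2/Ccr2 set. It was -0.098 in C1q macrophages, -0.39 in B cells and 0.05 in dendritic cells with Cd209a.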

How the results depend on the processing

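No paired analysis was possible because each group was 1 library. Beside the values reported, 118 recomputed summary values and 198 recomputed values of single genes were compared. Of these, 83 and 170 stayed within the interval of the reported value, or within 1.5 times the reported count. A minimum of 200 genes and the removal of marked doublets left out no rule cell, so their gene values could not change, yet they are counted. A value within the interval could also differ in sign, as the MHC class II median did (-0.42 in the monocyte cluster, 0.56 in all rule cells). The TBI share of rule cells was 0.530% with 3 or more rule genes, 0.583% without Gngt2 among them, 1.59% with a C1q limit of 2%, 0.636% without cells that had 2 or more markers of another cell type, 0.583% in the monocyte cluster, 0.618% after thinning to 1000 UMIs and 2.14% of cells with Ptprc, where the Sham share was 2.70%. The number of genes tested differed between settings. Genes at least 2-fold higher in TBI numbered 83 of 1331 with 3 or more rule genes, 82 of 1385 without Gngt2 and 71 of 1779 without cells with other markers. They numbered 52 of 1310 in the monocyte cluster, 26 of 969 at a minimum of 50 UMIs and 431 of 4778 at 10 UMIs. As a mean over cells there were 243 of 2642, and after thinning 31 of 517. Genes at least 2-fold lower numbered 69 with 3 or more rule genes, 76 without Gngt2, 141 without cells with other markers and 43 in the monocyte cluster. They numbered 25 at 50 UMIs, 394 at 10 UMIs, 246 as a mean over cells and 28 after thinning. In all rule cells the interferon median log2 ratio was 0.14 at 50 UMIs and -0.19 after thinning, which left 517 genes with 20 UMIs. That of MHC class I was 0.86 with 3 or more rule genes, 0.80 without Gngt2, 0.78 in the monocyte cluster, -0.18 with a C1q limit of 2% and -0.12 after thinning. That of MHC class II was -0.72 with 3 or more rule genes and 1.58 without cells with other markers. Cx3cr1 was at 0.31 with 3 or more rule genes and 0.25 without Gngt2, against -0.83 in all rule cells. Alternatives within the monocyte cluster were chosen after seeing the data. There the MHC class I median lay between 0.32 (thinned, 3 genes measured) and 0.78, and the interferon median was 0.10 without cells with Ly6c2. The median of the non-classical monocyte list was -0.17 with 3 or more rule genes and -0.12 without cells with other markers, and Cd74 was at 0.057 and 0.012. Cd74 was at -1.10 without cells with Ly6c2 and at -0.096 without the cell that held most of its UMIs. The cause of these shifts was not tested. With 89927 and 76490 UMIs in the cluster monocytes, genes under 20 UMIs were not compared.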

Other observations

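Barcodes outside the quality filters held few cells of this kind. The marker conditions were met by 1 of 656 such barcodes in Sham (0.152%, exact binomial 95% interval 0.00386 to 0.846%) and 1 of 576 in TBI (0.174%, 0.0044 to 0.963%). Of 463 barcodes left out for hemoglobin alone, 1 met them.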
